A study of Rattus norvegicus and Mus musculus with 14 samples.

Results

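Heat shock cognate 70 and heat shock protein 90, with their partners, were followed across 12 arrays of cultured rat neurons and 2 arrays of mouse cortex. The 4 genes were Hspa8, Hsp90ab1, Dnaja1 and Cct5. Their probes were chosen by the gene name that the platform's annotation gives, which left 8 probes of the 1152 on the array, 5 of them for Hspa8 and 1 for each of the others.

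The cultures were embryonic rat cortical neurons in 2 sets, each run as experiment 1 and experiment 2 with 1 array per treatment. In the MEK set the treatments were a control solution named CSS in the labels, NMDA, and NMDA with PD98059, an inhibitor of MEK, the kinase that activates ERK. In the NOS set they were CSS, NMDA, and NMDA with nitroarginine, an inhibitor of nitric oxide synthase. NMDA stimulates a class of glutamate receptor that admits calcium. Every inhibitor culture therefore also held NMDA, and neither set had an inhibitor alone. The mouse arrays were cortex of 1 adult nNOS knockout animal and 1 adult wild-type littermate on the c57bl background, hybridised to an array whose probes carry rat gene names.

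Chaperones bind proteins that are unfolded or not yet folded and help them reach their working shape. Hspa8 encodes Hsc70, the Hsp70 of unstressed cells, which in neurons also strips clathrin coats from synaptic vesicles. Dnaja1 encodes a J-domain partner that hands clients to Hsp70 and stimulates its ATPase. Hsp90ab1 encodes the constitutive cytosolic Hsp90, which receives clients from Hsp70 and holds kinases and steroid receptors in an activatable state. Cct5 encodes a subunit of the CCT chaperonin ring, which folds actin and tubulin. The heat shock factor HSF1 drives many chaperone genes through heat shock elements, arrays of inverted GAA units.

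The promoters of these genes differ in such units, and the 250 bases before the start of Hspa8, Dnaja1 and Cct5 are shown to make that visible. They are RefSeq sequences of build GRCr8, written 5′ to 3′ on the gene's strand, and capitals mark every match to GAANNTTC, TTCNNGAA and their longer forms GAANNTTCNNGAA and TTCNNGAANNTTC. Both shorter motifs read the same on either strand, each longer motif is the other's reverse complement, and every longer match contains 1 of each shorter motif. The windows are chr8:50080264-50080513 on the plus strand for Hspa8, chr5:60638154-60638403 on the plus strand for Dnaja1 and chr2:84313774-84314023 on the minus strand for Cct5.
Hspa8: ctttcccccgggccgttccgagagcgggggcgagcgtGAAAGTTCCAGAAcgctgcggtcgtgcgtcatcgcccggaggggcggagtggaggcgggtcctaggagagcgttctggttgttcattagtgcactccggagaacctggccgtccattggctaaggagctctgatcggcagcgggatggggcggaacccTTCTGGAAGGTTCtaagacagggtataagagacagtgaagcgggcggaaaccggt
Dnaja1: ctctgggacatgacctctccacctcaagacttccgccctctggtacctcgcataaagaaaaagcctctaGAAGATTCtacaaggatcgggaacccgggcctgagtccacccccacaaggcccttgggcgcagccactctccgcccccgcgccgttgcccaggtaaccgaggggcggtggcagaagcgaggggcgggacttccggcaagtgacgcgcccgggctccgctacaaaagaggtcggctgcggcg
Cct5: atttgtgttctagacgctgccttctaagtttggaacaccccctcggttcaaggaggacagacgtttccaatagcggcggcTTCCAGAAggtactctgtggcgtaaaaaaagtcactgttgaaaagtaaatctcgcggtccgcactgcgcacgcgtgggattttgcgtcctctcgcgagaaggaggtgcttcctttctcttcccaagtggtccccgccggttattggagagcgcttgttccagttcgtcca

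Hspa8 held both longer motifs. GAAAGTTCCAGAA lay 213 to 201 bases before the start and TTCTGGAAGGTTC lay 55 to 43 bases before it. Of 33469 rat promoters searched over the same length, 0.663% held either longer motif and 0.0448% held both. Dnaja1 and Cct5 each held 1 shorter motif, GAAGATTC at 181 to 174 bases and TTCCAGAA at 170 to 163 bases. Either shorter motif occurred in 13.5% of promoters. In the Hsp90ab1 window, which its gene model enters and which is therefore not printed, these letters were not found. A match describes the sequence and says nothing here of HSF1 binding.

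Values are Z-scores within each array, so 1 unit is about 1 SD over all probes and the direction is taken to be that of brightness. No fold change can be recovered, and a level cannot be compared between probes because clones can differ in length and sequence. The annotation gives all 5 Hspa8 probes the same transcript accession, so which part of the transcript each clone covers is not known here. RefSeq lists 33 Hspa8 pseudogenes in the rat, 23 of Hsp90ab1, 4 of Dnaja1 and 1 of Cct5, and a cDNA probe cannot be assumed to separate such copies from the gene.

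The arrays themselves limited the comparisons. The MEK experiment 1 control column stood 1 row away from its probes and was moved down by 1 row, after which its correlation with the median array over probes was 0.823. It still correlated with the other MEK set arrays at only 0.858 to 0.867, where those 5 correlated with each other at 0.971 to 0.995. The NOS experiment 2 arrays correlated with the NOS experiment 1 arrays at 0.454 to 0.617. Each rat group held n = 2 arrays, but the labels do not say whether those were independent cultures, and the p-values given here then describe only how far these arrays scatter, part of which may be technical. Of the neuron markers listed, 4 of 16 genes had a named probe, as did 2 of 12 astrocyte markers, 1 of 10 microglia markers, 0 of 10 oligodendrocyte markers and 2 of 9 endothelial and fibroblast markers. Over the 12 rat arrays the 5 neuron marker probes lay between -1.74 and 2.21 Z units and the 3 astrocyte marker probes between -1.58 and 1.31. A Z-score of 0 is the array mean and not an absence of signal, and levels cannot be compared between clones. Neither the presence nor the absence of a cell type can therefore be read from these scores.

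Hsp90ab1 stood lower in every MEK set array than in every NOS set array. In the MEK set its levels were -1.17 and -0.34 Z units in the controls of experiments 1 and 2, -0.05 and -0.28 with NMDA, and -0.22 and -0.01 with NMDA and PD98059. In the NOS set they were 0.41 and 0.84 in the controls, 0.55 and 1.29 with NMDA, and 0.52 and 1.11 with NMDA and nitroarginine. Both controls of the MEK set lay below its 4 other arrays, and the control was the lowest array in both NOS experiments. The shares of all probes with these patterns were not counted. By group mean the order from low to high was MEK control at -0.75 ± 0.59 (SD, n = 2), MEK NMDA at -0.16 ± 0.16, MEK PD98059 at -0.12 ± 0.15, NOS control at 0.63 ± 0.30, NOS nitroarginine at 0.82 ± 0.42 and NOS NMDA at 0.92 ± 0.53. The step between MEK PD98059 and NOS control was larger than the SDs of both neighbours, the step from MEK control to MEK NMDA was about as large as the SD of the control, and the other 3 were smaller. The sets shared no experiment, so treatment set and experiment cannot be told apart in that step. The share of all probes that separate the sets as Hsp90ab1 does was not counted.

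Dnaja1 was near the bottom of its own range in the MEK controls. Its levels there were -1.59 and -1.53 Z units, against -1.10 and -1.37 with NMDA and, with NMDA and PD98059, -1.5 and -1.55. Both NMDA arrays lay above the controls and the PD98059 arrays, and the latter groups overlapped. In the NOS set the controls were at -1.30 and -0.11, the NMDA arrays at -1.27 and -1.12, and the nitroarginine arrays at -1.07 and -0.69. The NOS experiment 2 control was the highest of the 12 rat arrays, and the other 5 NOS set arrays lay between -1.30 and -0.69. Group means ran from -1.56 ± 0.04 (SD, n = 2) in MEK control through -1.53 ± 0.04 with PD98059, -1.24 ± 0.19 in MEK NMDA, -1.20 ± 0.11 in NOS NMDA and -0.88 ± 0.26 with nitroarginine to -0.71 ± 0.84 in NOS control. The steps from PD98059 to MEK NMDA and from NOS NMDA to nitroarginine exceeded the SDs of both neighbours.

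Cct5 differed more by experiment than by treatment in the NOS set. In the MEK set the controls were at -0.60 and 0.61 Z units, and the 4 other arrays lay between 0.48 and 0.51. In NOS experiment 1 the control, NMDA and nitroarginine arrays were at 0.07, 0.08 and 0.23, and in NOS experiment 2 at 0.96, 1.28 and 1.19. Apart from the moved control array, arrays of 1 experiment lay close together whatever their treatment. No step between neighbouring group means, which ran from 0.01 ± 0.86 (SD, n = 2) in MEK control to 0.71 ± 0.68 with nitroarginine, exceeded the SDs of both groups.

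**Figure D1:**
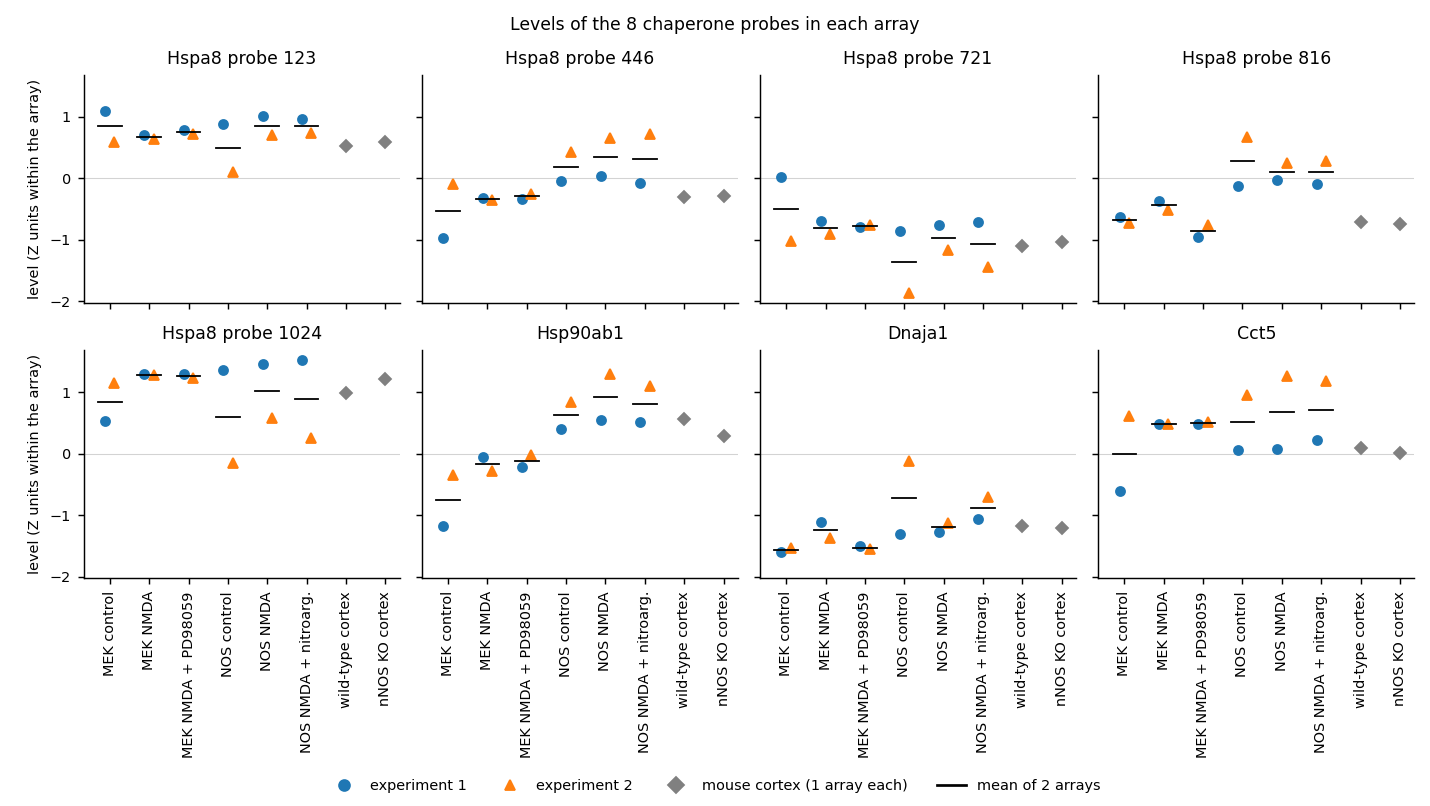
Level of each of the 8 probes (vertical axis, Z units within the array) in the 6 rat groups and the 2 mouse arrays (horizontal axis). Circles are experiment 1, triangles experiment 2, diamonds mouse cortex, and bars are means of 2 arrays. Hsp90ab1 is below 0 in all 6 MEK set arrays and above 0 in all 6 NOS set arrays, and most NOS set groups are spread widely between their experiments.

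The 5 Hspa8 probes did not move as 1 transcript would on 5 equal probes. Probes 123, 721 and 1024 were lower in NOS experiment 2 than in NOS experiment 1 under every treatment, and probes 446 and 816 were higher. For the control the shift from experiment 1 to 2 was -0.78 Z units on probe 123, -0.997 on probe 721 and -1.51 on probe 1024, against 0.47 on probe 446 and 0.80 on probe 816. The SD of that shift over all probes was 0.944, so these shifts were of the size common on those arrays. With a running median over 25 neighbouring probes removed from each array, the shifts kept these signs, at -0.21, -0.54 and -0.88 against 0.32 and 0.52.

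Probe 123 was at 1.10 and 0.60 Z units in the MEK controls, 0.70 and 0.65 with NMDA, 0.79 and 0.72 with PD98059, 0.88 and 0.10 in the NOS controls, 1.02 and 0.70 with NMDA, and 0.97 and 0.73 with nitroarginine. Probe 721 was at 0.02 and -1.02, -0.70 and -0.90, -0.79 and -0.75, -0.86 and -1.86, -0.76 and -1.17, and -0.71 and -1.43 in the same order. Probe 1024 was at 0.54 and 1.15, 1.30 and 1.28, 1.30 and 1.23, 1.36 and -0.15, 1.46 and 0.59, and 1.52 and 0.27. On these 3 probes the NOS experiment 2 control was the lowest of the 12 rat arrays, and the control lay below the NMDA array in both NOS experiments. The NOS control had the lowest group mean on each of the 3, at 0.49 ± 0.55, -1.36 ± 0.71 and 0.60 ± 1.07 (SD, n = 2), and the highest was NOS NMDA at 0.86 ± 0.23 on probe 123, MEK control at -0.50 ± 0.74 on probe 721 and MEK NMDA at 1.29 ± 0.01 on probe 1024. No difference between the lowest and the highest group mean exceeded the NOS control's SD except that of probe 721.

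Probe 446 was at -0.97 and -0.09 in the MEK controls, -0.31 and -0.36 with NMDA, -0.33 and -0.26 with PD98059, -0.04 and 0.43 in the NOS controls, 0.03 and 0.66 with NMDA, and -0.07 and 0.72 with nitroarginine. Probe 816 was at -0.63 and -0.72, -0.37 and -0.51, -0.95 and -0.76, -0.12 and 0.68, -0.03 and 0.25, and -0.09 and 0.29 in the same order. Both were higher in every NOS set array than in any MEK set array, as Hsp90ab1 was, although on probe 446 the gap was only from -0.09 to -0.07. How common such a gap is among all probes was not counted. MEK control had the lowest group mean on probe 446, at -0.53 ± 0.62 (SD, n = 2), and NOS NMDA the highest, at 0.35 ± 0.44. On probe 816 MEK PD98059 was lowest, at -0.85 ± 0.14, followed by MEK control at -0.67 ± 0.06, MEK NMDA at -0.44 ± 0.10, the NOS inhibitor and NMDA groups at 0.10 ± 0.27 and 0.11 ± 0.20, and NOS control at 0.28 ± 0.57. On probe 816 the 3 MEK groups did not overlap, with NMDA highest, control next and PD98059 lowest. The share of all probes whose MEK groups stand apart in this order was not counted. Between pairs of Hspa8 probes, the root mean square difference of the deviations from each probe's mean over the 12 arrays ran from 0.269 Z units, for probes 123 and 721, to 0.885, for probes 816 and 1024.

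**Figure D2:**
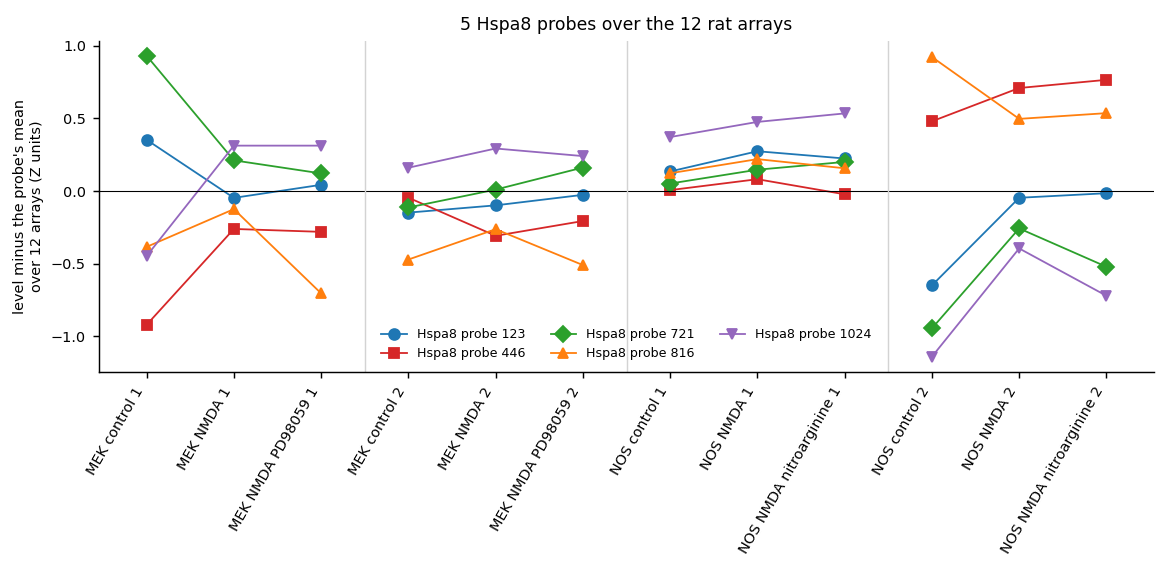
Level of each Hspa8 probe minus its own mean over the 12 rat arrays (vertical axis, Z units), by array (horizontal axis). Lines join the 3 arrays of an experiment and carry no order. In NOS experiment 2 probes 446 and 816 lie above 0 and probes 123, 721 and 1024 below it.

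NMDA was compared with control to ask what receptor stimulation did to these transcripts. Hspa8 on probe 1024 and Hsp90ab1 were higher under NMDA in all 4 experiments, which held for 2 of the 8 probes and for 10.2% of all probes, and no member was lower in all 4, where 4.6% of all probes were. For Hsp90ab1 the NMDA minus control difference was 1.12 Z units in MEK experiment 1, 0.06 in MEK experiment 2, 0.14 in NOS experiment 1 and 0.45 in NOS experiment 2. For probe 1024 it was 0.76, 0.13, 0.10 and 0.75 in the same order. The large values came from MEK experiment 1, whose control is the moved column, and from NOS experiment 2, whose 3 arrays all stood apart from those of NOS experiment 1. The other pair of experiments gave at most 0.14.

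Over both sets the fitted difference was 0.44 Z units for Hsp90ab1 (SE 0.26, 95% interval -0.15 to 1.04) and 0.44 for Hspa8 probe 1024 (SE 0.395, -0.46 to 1.33). Cct5 was at 0.32 (SE 0.38), and Hspa8 probes 446, 123, 721 and 816 were at 0.18, 0.10, 0.05 and 0.04. Dnaja1 was at -0.08 (SE 0.25). The median of the 8 was 0.14, beside 0.0004 over all probes. None of the 8 passed, and limma called 0 probes of the whole array (0.00%), with 11 of 1152 at an unadjusted p under 0.05. The lowest limma adjusted p of a member in any of the 6 rat comparisons was 0.998. This fit took no account of experiment and pooled the scatter within all rat groups. The SEs, intervals and p-values it gave, those of the MEK set included, therefore carry the shift between the NOS experiments. With experiment as a block, the SE over both sets was 0.157 for Hsp90ab1 and 0.147 for Hspa8 probe 1024. Limma called 0 probes there too, and the experiment numbers did not pair the MEK set arrays.

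Within the MEK set, 4 of the 8 probes were higher with NMDA in both experiments, beside 29.3% of all probes, and 0 were lower in both, beside 24.4%. The 4 were Hsp90ab1 at a fitted 0.59 Z units (SE 0.37), Hspa8 probe 1024 at 0.45 (SE 0.56), Dnaja1 at 0.32 (SE 0.36) and Hspa8 probe 816 at 0.23 (SE 0.30). Cct5 was at 0.48 and Hspa8 probe 446 at 0.20, both from experiment 1 alone, since experiment 2 gave -0.12 and -0.26. Hspa8 probes 123 and 721 were at -0.18 and -0.30, with 0.05 and 0.12 in experiment 2. Limma called 0 of 1152 probes in this set and 16 had an unadjusted p under 0.05. Without the moved control array, which leaves the MEK control as 1 array, Hsp90ab1 was at 0.17 and probe 1024 at 0.14, and over both sets they were at 0.24 and 0.28. In the MEK set Cct5 was then at -0.13, probe 446 at -0.24, probe 123 at 0.08 and probe 721 at 0.22.

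Within the NOS set, 6 of the 8 probes were higher with NMDA in both experiments, beside 26.4% of all probes, and 0 were lower in both, beside 23.8%. In experiment 1 all 8 were higher than control, where 46.0% of all probes were, but by only 0.01 to 0.14 Z units, and the SD of the difference over all probes was 0.133. In experiment 2 the differences were 0.60, 0.23, 0.69, -0.43 and 0.75 on Hspa8 probes 123, 446, 721, 816 and 1024, 0.45 for Hsp90ab1, 0.31 for Cct5 and -1.01 for Dnaja1. The 5 Hspa8 probes are not independent, so these counts overstate how many genes were higher.

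The fitted NOS set values were 0.37, 0.15, 0.39, -0.16 and 0.42 on the Hspa8 probes in the order just given, 0.30 for Hsp90ab1, 0.16 for Cct5 and -0.49 for Dnaja1 (SE 0.36, 95% interval -1.30 to 0.32). For Hsp90ab1 the NOS set value was 0.51 without the NOS experiment 2 control and -0.075 without the NOS experiment 2 NMDA array. For probe 1024 it was -0.33 and 0.86 without the same arrays. Limma called 0 of 1152 probes here, with 2 at an unadjusted p under 0.05. Without NOS experiment 2 the fitted differences of the 8 probes were 0.01 to 0.14. The Dnaja1 value rested on the NOS experiment 2 control, without which it was at 0.11. Removing a running median over 25 probes along the array order turned the Dnaja1 difference of experiment 2 from -1.01 into -0.13, and raised its fitted MEK set difference from 0.32 to 0.65, with 0.77 and 0.52 in experiments 1 and 2. The NMDA response of Dnaja1 in the NOS set minus that in the MEK set was -0.81 (SE 0.51, 95% interval -1.95 to 0.33), and -0.78 with the running median removed. Without the NOS experiment 2 control it was -0.22. For this comparison of responses limma called 0 of 1152 probes, with 4 at an unadjusted p under 0.05.

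With the running median removed, the fitted NMDA differences over both sets lay between 0.05 and 0.39 Z units for the 8 probes, beside a median of 0.07 over all probes. Hsp90ab1 was then at 0.73, 0.00, 0.11 and 0.71 in MEK experiments 1 and 2 and NOS experiments 1 and 2, and Hspa8 probe 816 at 0.22, 0.21, 0.04 and 0.23. Limma again called 0 probes. Without that removal, 4 of 5 neuron marker probes of 4 genes were above 0 over both sets, Hpca being at -0.27. The median was 0.36 Z units beside 0.0004 over all probes, and 0.31 beside 0.07 with the removal. Uchl1 has more than 1 of these probes, so they are not independent. The share of all probes above 0 was not counted. None of the 5 passed. Of the astrocyte marker probes, 1 of 3 was above 0, with a median of -0.03. All 3 were above 0 with median centring, at a median of 0.051 beside 0.078 over all probes. The same held with the running median removed, at 0.073 beside 0.065. Fewer cells of a type and less RNA per cell cannot be told apart in such cultures, and the part of either in the chaperone values was not tested.

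**Figure D3:**
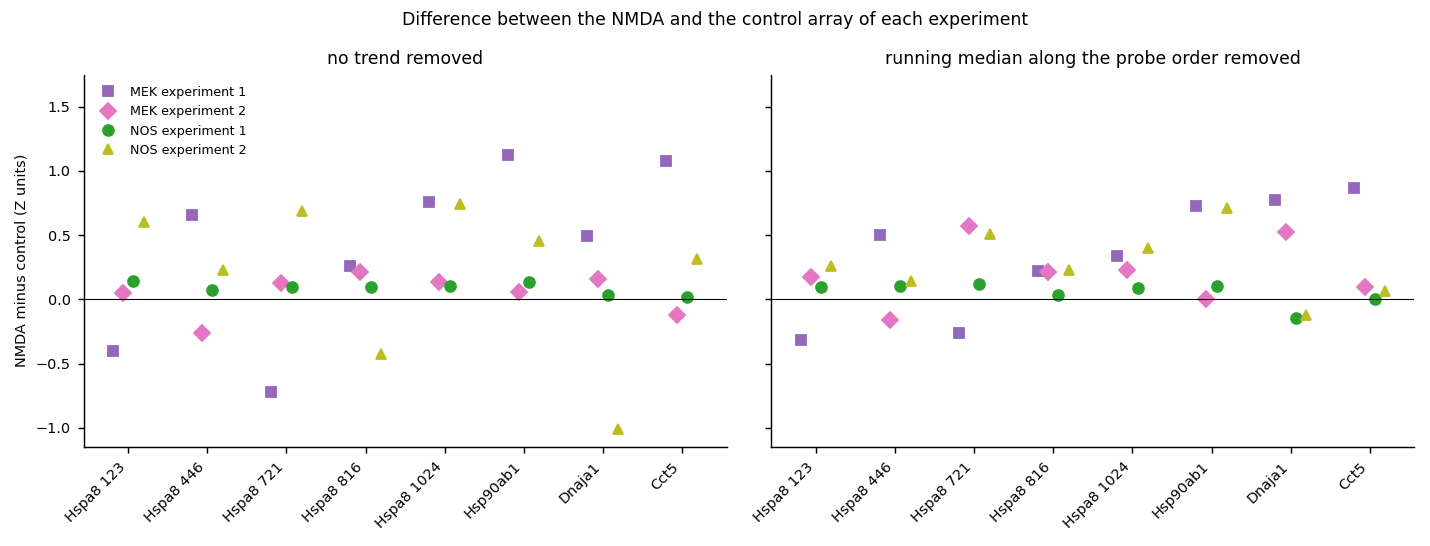
Difference between the NMDA and the control array (vertical axis, Z units) for each probe (horizontal axis) in the 4 experiments, without (left) and with (right) the running median along the probe order removed. NOS experiment 1 lies within 0.14 of 0 for every probe, MEK experiment 1 and NOS experiment 2 reach 1.12 and -1.01 on the left, and after removal Dnaja1 in NOS experiment 2 is at -0.13.

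PD98059 was added to NMDA to ask how much of the response needs MEK. Hspa8 probe 816 and Dnaja1 were lower with PD98059 than with NMDA alone in both experiments, and these 2 of 8 probes stand beside 12.5% of all probes. Probe 816 differed by -0.58 and -0.25 Z units and Dnaja1 by -0.40 and -0.18. Probe 123 and Cct5 were higher in both, by 0.09 and 0.07 and by 0.01 and 0.02, again 2 of 8 beside 24.4% of all probes.

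Probe 816 and Dnaja1 were also the 2 members on which both MEK set NMDA arrays lay above all 4 control and PD98059 arrays, a pattern found on 3.91% of all probes, with the opposite on 4.43% and on 0 members. They were singled out after their values were seen. The NMDA arrays enter both differences, so the higher value against control and the lower value with PD98059 are not independent. The fitted PD98059 difference was -0.41 for probe 816 (SE 0.30, 95% interval -1.08 to 0.25) and -0.29 for Dnaja1 (SE 0.36, -1.10 to 0.52). The other 4 Hspa8 probes did not share the pattern and were, like Hsp90ab1 and Cct5, between -0.03 and 0.08. Neuron markers were below 0 with PD98059 in 5 of 5 probes, with a median of -0.07 beside 0.02 over all probes. That difference shares the NMDA arrays with their difference from control. Their part in the member values was not tested. No member passed, and limma called 0 of 1152 probes, with 0 at an unadjusted p under 0.05.

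Nitroarginine was added to NMDA to ask how much of the response needs nitric oxide synthase. Dnaja1 was higher with nitroarginine in both experiments, by 0.21 and 0.43 Z units, the 1 such member of 8, beside 29.5% of all probes. Hsp90ab1 was lower in both, by 0.03 and 0.18, again 1 of 8 beside 31.4%. The fitted difference for Dnaja1 was 0.32 (SE 0.36, 95% interval -0.49 to 1.12), and the 7 other probes were between -0.13 and 0.03. With the running median removed, Dnaja1 was at 0.09, with 0.23 in experiment 1 and -0.04 in experiment 2, and the lowest member was Hsp90ab1 at -0.38, with -0.07 and -0.69. Neuron markers were below 0 with nitroarginine in 4 of 5 probes, with a median of -0.14 beside -0.01 over all probes. Their part in the member values was not tested. No member passed, and limma called 0 of 1152 probes, with 1 at an unadjusted p under 0.05. The PD98059 and nitroarginine cultures came from different sets, so their values stand side by side without a comparison.

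In mouse cortex Hsp90ab1 and Hspa8 probe 1024 differed most between the knockout and the wild type among the 8 probes, with 1 array each and so no test. Hsp90ab1 was at 0.29 Z units in the knockout and 0.56 in the wild type, a difference of -0.27, and of -0.41 with the running median removed. Hspa8 probe 1024 was at 1.22 and 0.99, a difference of 0.24, and of 0.32 with the running median removed. The SD of the difference over all probes was 0.199. The other 6 probes differed by -0.09 to 0.08, namely Cct5 at 0.01 and 0.10, Dnaja1 at -1.20 and -1.17, and Hspa8 at 0.60 and 0.52 on probe 123, -0.28 and -0.31 on probe 446, -1.04 and -1.10 on probe 721 and -0.73 and -0.70 on probe 816. None of the 8 differed by 0.5 Z units or more (0 of 8), which 2.34% of all probes did, so a count of 0 is near that background. Each mouse level lay inside the range of the 12 rat arrays on the same probe.

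**Figure D4:**
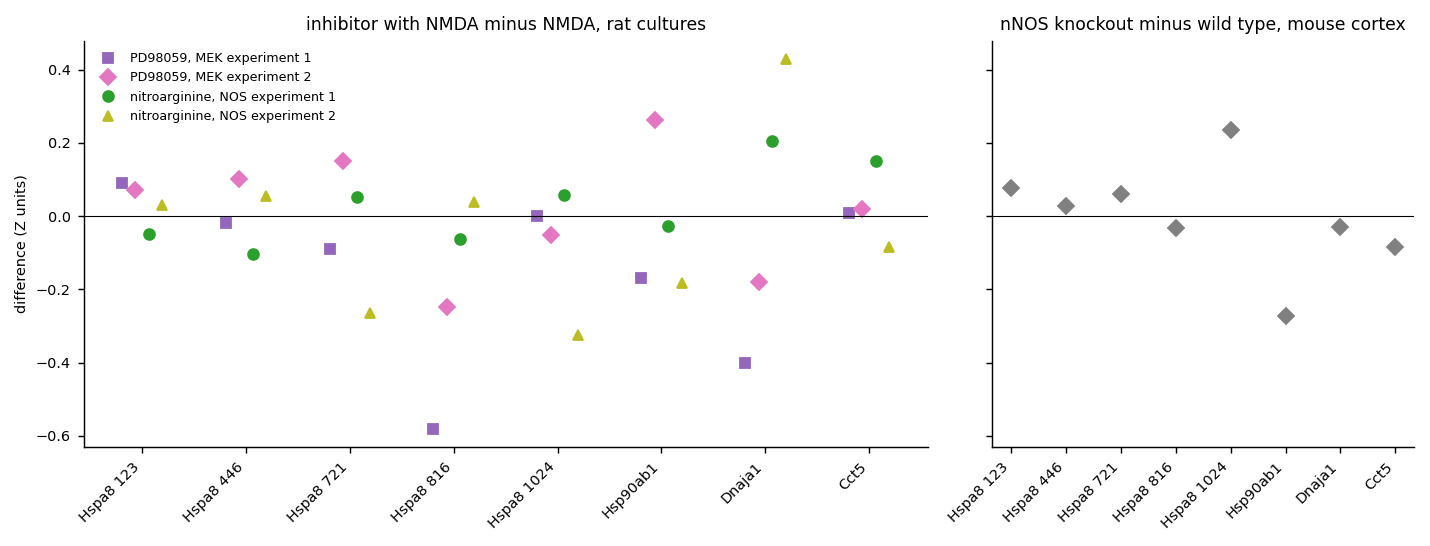
Difference between the inhibitor with NMDA and NMDA alone in each experiment (left) and between knockout and wild-type cortex (right), both in Z units, for each probe. Hspa8 probe 816 and Dnaja1 lie below 0 with PD98059 in both experiments, Dnaja1 lies above 0 with nitroarginine in both, and every knockout difference is within 0.27 of 0.

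Other chaperone genes were read from a list of 99, of which 5 had a named probe. They were Cdc37, which brings kinases to Hsp90, Fkbp5, an Hsp90-bound immunophilin, Dnajc7, a J-protein that also binds Hsp90, Dnajc6, the auxilin that recruits Hsc70 to clathrin coats, and Serpinh1, the collagen chaperone. Against control, NMDA gave over both sets -0.07 Z units for Cdc37, 0.21 for Fkbp5, 0.13 for Dnajc7, 0.12 for Dnajc6 and 0.10 for Serpinh1. So 4 of 5 were above 0, with a median of 0.12, and 0 passed in either direction. In the MEK set 3 of 5 were above 0 with a median of 0.27, and in the NOS set 2 of 5 with a median of -0.05. With PD98059 the 5 were within 0.04 of NMDA alone. Nitroarginine gave 0.29 for Fkbp5 and 0.20 for Serpinh1 against NMDA alone, and -0.05 to 0.09 for the other 3. In the knockout Fkbp5, Dnajc7 and Dnajc6 were higher by 0.16, 0.14 and 0.12 and Cdc37 and Serpinh1 were at -0.14 and -0.05.

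Genes linked to the members by function were read mainly for NMDA against control over both sets. Actins and tubulins, which CCT folds, were above 0 with NMDA over both sets in 9 of 9 probes of 5 genes, with a median of 0.14 Z units beside 0.0004 over all probes. The count over both sets was 9 of 9 with quantile normalization. With the running median removed it was 8 of 9, at a median of 0.28 beside 0.07 over all probes. Median centring raised every difference alike, to a median of 0.08 over all probes, so its 9 of 9 was fixed in advance. The share of all probes above 0 over both sets was not counted. It was 8 of 9 without NOS experiment 2 and 7 of 9 with the column as deposited. With experiment as a block and without the moved array it was 9 of 9. Several of these probes are of Actb, the lowest of them at 0.004 in the main fit, so the probes are not independent. In each set alone 7 of 9 were above 0. Nitroarginine put 8 of 9 below NMDA alone, at a median of -0.08 beside -0.01 over all probes, and PD98059 2 of 9. Clathrin coat and uncoating genes, among which Hsc70 acts, were above 0 in 3 of 6 probes of 5 genes, with a median of -0.02. With median centring that median was 0.06 beside 0.08 over all probes, and with the running median removed 0.09 beside 0.07. In the knockout 6 of 6 clathrin probes were higher than in the wild type, beside 50.6% of all probes, with 1 array each. Ubiquitin and proteasome genes were above 0 in 4 of 7 probes of 4 genes, with a median of 0.12. The Uchl1 probes, at 0.43 and 0.53, are also in the neuron marker list. Cand1 probes were at 0.30, 0.12 and -0.17, and Psmc3 and Psmd14, of the proteasome, at -0.18 and -0.22. In each list 0 probes passed the limma test in either direction.

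The named probes whose deviations over the 12 rat arrays were nearest to those of a member differed between members. For Cct5 these were Uchl1, a neuronal ubiquitin hydrolase, at a root mean square difference of 0.162 Z units, Ankrd28 at 0.224 and Ccdc86 at 0.2302, where the median over other named probes was 0.556. Dnaja1 was nearest to Psmd14, a deubiquitinase of the proteasome, at 0.169, Shkbp1 at 0.185 and Ctr9 at 0.215. For Hsp90ab1 they were COX3, a mitochondrially encoded oxidase subunit, at 0.213, Cand1, a cullin regulator, at 0.222 and TAF9 at 0.228. Among Hspa8 probes the nearest was Eef1a1 to probe 123 at 0.132, Ppp2r2b to probe 446 at 0.131, Rasip1 to probe 721 at 0.152, Nfia to probe 816 at 0.106 and Tmem130 to probe 1024 at 0.156. No gene was among the nearest 3 of more than 1 Hspa8 probe. These 12 arrays share the experiment differences described above, and the likeness is a description of them.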

How the data were processed

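Transcripts were measured on a cDNA array of 1152 probes in 12 rat and 2 mouse samples. The deposited values are scores, with a mean of 0 and mostly an SD near 1 in each array. The authors' steps are not stated in the labels used here, so the scale before scoring, the centring and the direction are unknown. Column medians ran from -0.15 to 0.24. Members, gene lists and alternatives were chosen with earlier results of these data known. All probes of the 4 genes are named, and for likeness the 3 nearest probes of other genes with 1 symbol.

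The MEK experiment 1 control column was moved down by 1 row, which leaves 1 probe without a value there. Scores were fitted for all probes with limma 3.58.1 in R 4.3.3 (12 rat arrays in 6 group means, moderated by empirical Bayes, 6 residual degrees of freedom, two-sided, Benjamini-Hochberg over 1152 probes, threshold 0.05). The code was also run on simulated data with smaller noise than in these arrays, which cannot show what the fit would detect here. The tests suit log-scale values, and the scores were used as deposited. Mouse arrays were not fitted. Of 384 probes with 1 symbol, 362 matched the rat gene table. Other steps used Python 3.11.15.

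The labels number experiments within each set, so same-numbered arrays were taken as pairs. Their deviations from the group means gave correlations from 0.874 to 0.930 (NOS set) and from -0.145 to 0.0726 (MEK set), so the numbers did not pair the MEK set by that measure. Alternatives were the column as deposited, experiment as a block, quantile normalization, median centring, a running median over 25 probes removed (with and without the block), a variance trend with robust moderation, the dimmest 25% of probes left out, NOS experiment 2 left out, and each array left out in turn. The block without the moved array and a crossed pairing were added after seeing the data.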

Additional observations from a re-analysis of the deposited data

How the results depend on the processing

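No member probe was called in any of the 6 rat comparisons under any setting in which it was fitted. The settings were the 9 designed alternatives, the 12 arrays left out in turn and the 2 added ones. The lowest adjusted p of a member was 0.112 (limma, running median removed with experiment as a block). The alternative without the dimmest probes held only 6 of the 8 member probes. It lacked Hspa8 probe 721 and Dnaja1 and so could not call them. With experiment as a replicate block the differences themselves were the same, the count of called members stayed at 0 and the unadjusted p over both sets was 0.015 for Hspa8 probe 1024 and 0.0187 for Hsp90ab1, with adjusted p = 0.384 and 0.421 in limma. With the PD98059 arrays crossed in the block, limma called 0 probes. Of 28 fitted differences in the text, 19 could be compared without the dimmest probes, and 0 turned there. Signs turned in the following settings, for a cause that was not tested.

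With the MEK control column as deposited, and so against unlike probes, the MEK set values were -0.20 for Hspa8 probe 446, -0.20 for Dnaja1 and -0.30 for Cct5, and over both sets -0.024 for probe 446 and -0.068 for Cct5. With the running median removed, with or without the block, they were 0.15 for probe 721 in the MEK set, 0.13 for probe 816 in the NOS set and 0.26 for Dnaja1 over both sets. Without NOS experiment 2 the NOS set values were 0.097 for probe 816 and 0.032 for Dnaja1, and over both sets -0.018 for probe 123, -0.10 for probe 721 and 0.18 for Dnaja1. With the block and without the moved array the MEK set values were 0.046 for probe 123, -0.23 for probe 446, 0.18 for probe 721 and -0.12 for Cct5, and over both sets -0.040 for probe 446.

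Leaving out each array in turn, 17 of the 28 turned at least once. In the MEK set, between the fits without control replicate 1 or 2, probe 123 ran from -0.43 to 0.076, probe 446 from -0.24 to 0.64, probe 721 from -0.82 to 0.22 and Cct5 from -0.13 to 1.09. In the NOS set, where leaving out 1 array also brings in the difference between experiments, probe 123 ran from -0.021 to 0.76, probe 446 from -0.16 to 0.47, probe 721 from -0.11 to 0.89, probe 816 from -0.56 to 0.24, probe 1024 from -0.33 to 1.18, Hsp90ab1 from -0.075 to 0.67, Dnaja1 from -1.08 to 0.11 and Cct5 from -0.43 to 0.76. Over both sets probe 123 ran from -0.10 to 0.29, probe 446 from -0.043 to 0.39, probe 721 from -0.21 to 0.31, probe 816 from -0.17 to 0.24 and Dnaja1 from -0.38 to 0.22. Knockout differences stayed under 0.5 Z units in all 8 probes under quantile normalization, median centring and running median removal. Signal over background is not given in the scores, so how near a probe lies to background is unknown.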
